A study of Mus musculus with 6 samples.

Results

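The Polycomb group comprises chromatin regulators that keep developmental genes silent, and its transcripts were compared between mouse embryonic fibroblasts labelled wild type and fibroblasts labelled SphK2 null. The set was a list of 37 genes, matched by symbol to the Ensembl identifiers of the 46983 genes counted: 11 subunits of Polycomb repressive complex 2 (PRC2), 20 of Polycomb repressive complex 1 (PRC1), 1 of the DNA-binding complex PhoRC and 5 enzymes or enzyme cofactors that act in removing Polycomb marks. All 37 had a row, and all 37 passed the filter on low counts. Each genotype had 3 RNA libraries. Both groups came from the C57BL/6 strain, from embryos of 14 days, and both were at passage 16 in DMEM with 10% fetal bovine serum and no treatment. SphK2 is sphingosine kinase 2, which makes the lipid signal sphingosine-1-phosphate, and the series title concerns breast tumour stroma. The sources used here do not say how the null allele was made, how many embryos or lines a group stands for, or whether its 3 libraries are separate cultures. P-values therefore rest on the spread among libraries alone, part or all of which may be technical.

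PRC2 places methyl groups on a lysine of histone H3 (the mark H3K27me3) through the methyltransferases EZH2 and EZH1, which work only with EED and SUZ12 bound. PRC1 places ubiquitin on histone H2A through RING1 or RNF2 (RING1B), each paired with a PCGF protein that sets which form of the complex is built. Canonical PRC1 holds a CBX protein, which reads H3K27me3, and a PHC protein, while variant PRC1 holds RYBP or YAF2 instead. In cultured fibroblasts these complexes are best known for silencing the Cdkn2a locus, whose products stop the cell cycle.

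The labels were checked on Sphk2 itself, whose transcripts were higher in the libraries labelled null. Sphk2 stood at 27.3 ± 0.907 CPM (counts relative to library size after scaling for composition; mean ± SD, n = 3) in the libraries labelled wild type and at 50.02 ± 1.35 CPM (SD, n = 3) in those labelled null. The groups are therefore called wild-type-labelled and null-labelled throughout, and each direction is between labels. Total counts ran from 15598566 to 23681718 per library. The null-labelled libraries had little of most of the fibroblast markers: 11 of 12 were lower and 1 (Fbln2) was higher, with a summed level of 13132 to 13535 CPM against 3731 to 3776 CPM. Col1a1, the main collagen chain of connective tissue, fell from 623 ± 17.0 to 1.68 ± 0.210 CPM (SD, n = 3), and Thy1 had 0 counts in all 3 null-labelled libraries, at least 82.1-fold lower against a floor of 3 counts over the group. Vim fell from 5622 ± 115 to 3211 ± 17.9 CPM (SD, n = 3) and stayed abundant. Of the 9 trophoblast markers 3 could be tested, and their list summed to 11.2 to 12.7 CPM against 1234 to 1286 CPM, nearly all of it Esx1 with some Hand1, both higher. The third, Eomes, was lower (55 counts against 6, named after its values were seen), and the defining markers Cdx2 and Prl3d1 were at 0 in all libraries. Of the 10 epithelial markers 3 could be tested: Krt8 rose from 107 to 397 CPM, its partner keratin Krt18 fell (69 counts against 16) and Grhl2 did not pass (39 against 30), the last 2 named after their values were seen, with Epcam at 0.153 against 0.115 CPM and Cdh1 at 0.380 against 0.379 CPM. Among all genes tested 38.1% were higher and 41.1% lower, so a call in these marker lists says little on its own. Among the tested markers of other cell types, 2 of 6 for extraembryonic endoderm were higher and 4 lower (Sox7 at 3.65 against 20.04 CPM, Dab2 at 207 against 39.3 CPM). Both for pluripotent cells were lower, Sox2 and, only slightly and with overlapping groups, Klf4 (69.0 against 64.3 CPM, log2 fold change -0.10). For macrophages 2 of 3 were lower (Cd14 at 16.05 against 4.84 CPM, Cd68 at 3.30 against 1.99 CPM, with the leukocyte marker Ptprc at 0.132 against 0.196 CPM). The endothelial list summed to at most 4.96 CPM. The part of this difference in cell identity in the Polycomb results below was not tested, and in bulk RNA fewer cells of a type and less RNA per cell cannot be told apart.

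Of the 37 genes, 34 (91.9%) passed the edgeR quasi-likelihood test at an adjusted p of 0.05, 19 of them higher with the null label and 15 lower. Among all 15199 genes tested, 79.2% passed, 38.1% higher and 41.1% lower, so a pass on its own says little here. Groups of libraries did not overlap for 36 of the 37, against 79.9% of all genes. A test against a minimum change of 1.5-fold is the more useful reading. It was passed by 14 of the 37 (37.8%), against 34.5% of all genes; of the 11073 genes expressed at least as highly as the lowest of the 37, 85.0% passed the plain test and 30.3% the test against 1.5-fold. Higher beyond 1.5-fold were 8 genes (Ezh2, Jarid2, Phf19, Ring1, Pcgf6, Cbx8, Rybp and Asxl2), against a background of 15.3%. Lower beyond 1.5-fold were 6 (Rnf2, Pcgf3, Cbx6, Phc2, Scmh1 and Kdm6a), against 19.2%. The median log2 fold change was 0.11 over the 37 and -0.02 over all genes, and the median size of the change was 0.48 and 0.47. These counts set the Polycomb genes close to the rest of the transcriptome in how much they changed, and the description below concerns which subunits moved which way. Values of log2 fold change are null-labelled minus wild-type-labelled, with their standard error (SE).

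**Figure D1:**
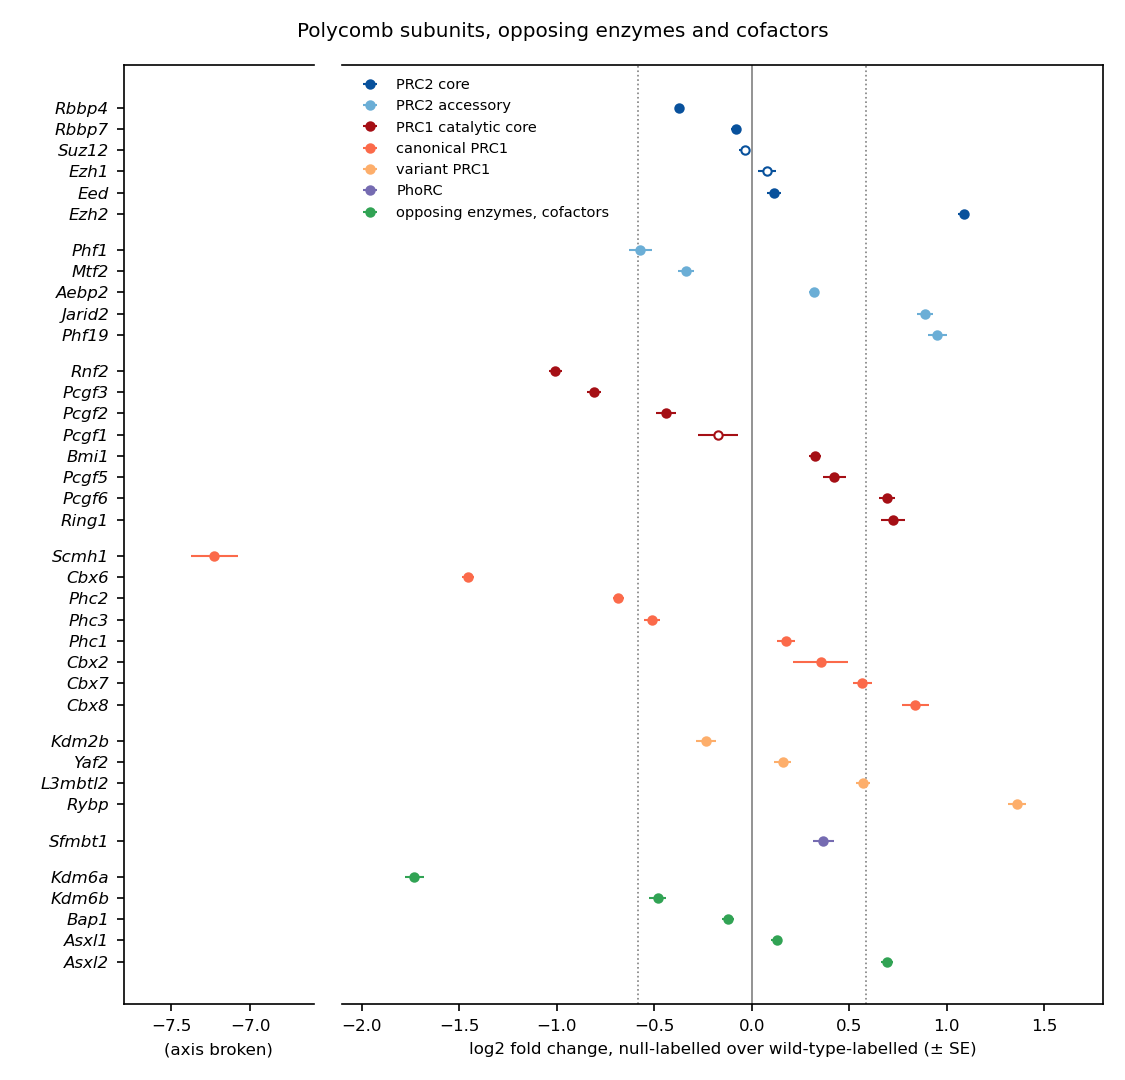
Log2 fold change (null-labelled over wild-type-labelled, with SE as bars) of the 37 genes, coloured by complex and ordered by size within it; the horizontal axis is broken to hold Scmh1. Filled points passed the edgeR adjusted p of 0.05, open points did not, and dotted lines mark 1.5-fold. The PRC2 core lies near 0 apart from Ezh2 at 1.09 and Rbbp4 at -0.37, while the PRC1 groups (catalytic core, canonical and variant) spread to either side.

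The upstream sequences of the methyltransferase and RING ligase genes and of Kdm6a are shown first, as a description of their letters. The part of these sequences in the changes below was not tested. RefSeq start sites (GRCm38.p6) were matched for 32 of the 37 genes, all but Cbx2, Kdm6b, Pcgf1, Rybp and Yaf2. Shown 5′ to 3′ on the gene's own strand are the bases before the start of the methyltransferases Ezh2 (chr6:47595059-47595183, minus strand, 125 bases that end 29 bases before the start and hold no exon) and Ezh1 (chr11:101226464-101226713, minus strand, 250 bases), of the ubiquitin ligases Ring1 (chr17:34024681-34024930, minus strand) and Rnf2 (chr1:151500992-151501241, minus strand), and of the demethylase gene Kdm6a (chrX:18162325-18162574, plus strand). Capitals mark a CCAAT box in either orientation.
Ezh2: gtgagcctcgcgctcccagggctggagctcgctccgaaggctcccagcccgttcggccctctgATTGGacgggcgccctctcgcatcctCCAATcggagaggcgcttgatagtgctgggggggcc
Ezh1: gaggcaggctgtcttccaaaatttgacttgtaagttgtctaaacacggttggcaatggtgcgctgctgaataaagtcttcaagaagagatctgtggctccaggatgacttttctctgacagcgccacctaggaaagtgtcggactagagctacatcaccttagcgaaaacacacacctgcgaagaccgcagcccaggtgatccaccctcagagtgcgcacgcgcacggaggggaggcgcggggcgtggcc
Ring1: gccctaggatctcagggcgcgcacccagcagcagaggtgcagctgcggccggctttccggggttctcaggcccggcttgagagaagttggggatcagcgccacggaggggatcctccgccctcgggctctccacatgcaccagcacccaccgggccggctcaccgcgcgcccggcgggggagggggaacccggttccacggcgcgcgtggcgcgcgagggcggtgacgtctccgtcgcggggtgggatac
Rnf2: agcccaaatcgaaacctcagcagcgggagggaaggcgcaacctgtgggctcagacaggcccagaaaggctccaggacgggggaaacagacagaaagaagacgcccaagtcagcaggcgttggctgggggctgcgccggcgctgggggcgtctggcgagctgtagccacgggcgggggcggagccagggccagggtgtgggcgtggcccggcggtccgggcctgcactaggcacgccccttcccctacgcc
Kdm6a: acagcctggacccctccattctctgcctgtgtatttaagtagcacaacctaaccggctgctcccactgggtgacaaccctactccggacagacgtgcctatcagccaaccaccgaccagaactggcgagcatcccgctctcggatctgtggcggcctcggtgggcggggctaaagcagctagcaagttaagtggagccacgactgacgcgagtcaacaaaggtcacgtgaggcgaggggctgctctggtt
Only the Ezh2 stretch holds one of the motifs searched, 2 CCAAT boxes that face opposite ways, and the full 250-base window of Ezh2 holds 3. In the Ensembl annotation used for counting, Ezh2 reaches 47595341, so the printed stretch lies inside that gene model. The Ensembl gene of Rnf2 begins at 151500955, downstream of the RefSeq start. None of the reference transcripts of Rnf2 held the bases just after that RefSeq start. The 4 motifs searched on both strands of the 250 bases before each start were the E2F type (TTCCCGC, also with the letters TTGGCGC, or else TTCGCGC, or lastly TTGCCGC), the CCAAT box with those letters, the ETS type with the letters CCGGAAG and the cAMP response element with TGACGTCA, and matches of different motifs may overlap. An E2F-type match stood before 9 of the 32 genes (28.1%), against 16.3% of the 10240 tested genes with a start and 7.89% of all 32851 windows. A CCAAT box stood before 12 (37.5%), against 40.6% of tested genes and 33.8% of windows, an ETS match before 3 (9.38%, against 15.6% and 6.91%) and a cAMP response element before 1, Cbx8 (3.13%, against 2.98% and 1.55%). A match describes letters only. The median number of CpG pairs in the window was 22.5 for the 32 genes and 17 for the tested genes.

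In the PRC2 core, the 6 genes gave 1 large change. Ezh2, the main methyltransferase, rose to 2.12-fold, while Ezh1, Suz12 and Eed, its alternative and its obligate partners, differed by at most 0.11 on the log2 scale. Ezh2 measured 150, 157 and 160 CPM with the wild-type label and 333, 327 and 332 CPM with the null label. Each null-labelled library was above each wild-type-labelled one, and the difference passed edgeR's test against 1.5-fold (log2 fold change 1.09 ± 0.027 SE, adjusted p = 2.80e-80). Eed, which binds H3K27me3 and stimulates the enzyme, stood at 91.4, 87.6 and 88.1 CPM against 97.5, 95.4 and 96.1 CPM. The groups did not overlap, and this small difference passed (0.11 ± 0.036 SE, edgeR adjusted p = 0.00254). Suz12, the scaffold of the complex, stood at 195, 199 and 197 CPM against 194, 192 and 190 CPM. It did not pass (-0.04 ± 0.028 SE, 95% interval -0.09 to 0.02, edgeR adjusted p = 0.215). Ezh1, the methyltransferase more prominent in cells that do not divide, was at 42.5 ± 2.39 and 44.8 ± 1.45 CPM (SD, n = 3) and was the only gene of the 37 whose groups overlapped (0.08 ± 0.048 SE, interval -0.02 to 0.17, edgeR adjusted p = 0.123). The histone-binding proteins Rbbp4 (-0.37 ± 0.024 SE) and Rbbp7 (-0.08 ± 0.022 SE), which also serve in other chromatin complexes, fell slightly. A change as small as that of Rbbp7 depends on the scaling between libraries. Per kilobase Rbbp7 went from 84.0% ± 0.109 to 86.5% ± 0.292 (SD, n = 3) of the pair. Of the exon bases of Rbbp4, 18.0% also belong to exons of genes on the other strand, as do 10.6% of those of Eed, and reads over such stretches were not counted.

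Per kilobase of exon, the change in Ezh2 altered the balance of the paralogs. Of the summed Ezh1 and Ezh2 level, Ezh1 made up 20.4%, 20.3% and 18.3% with the wild-type label and 10.5%, 11.3% and 10.7% with the null label. The groups did not overlap, and the means were 19.7% ± 1.18 and 10.9% ± 0.407 (SD, n = 3), a difference of -8.83 percentage points. The exact two-sided permutation test over 6 libraries gave p = 0.1, the smallest it can give with 3 against 3, for this and for each of the other 8 paralog pairs or families tested (Rbbp7, Phf19, Rnf2, Bmi1, Cbx7, Phc1, Rybp and Kdm6a), so none of the 9 could reach 0.05. The sum of the whole PRC2 core was 378 ± 1.79 against 385 ± 3.65 CPM per kilobase (SD, n = 3), of which Rbbp7 is the largest component.

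**Figure D2:**
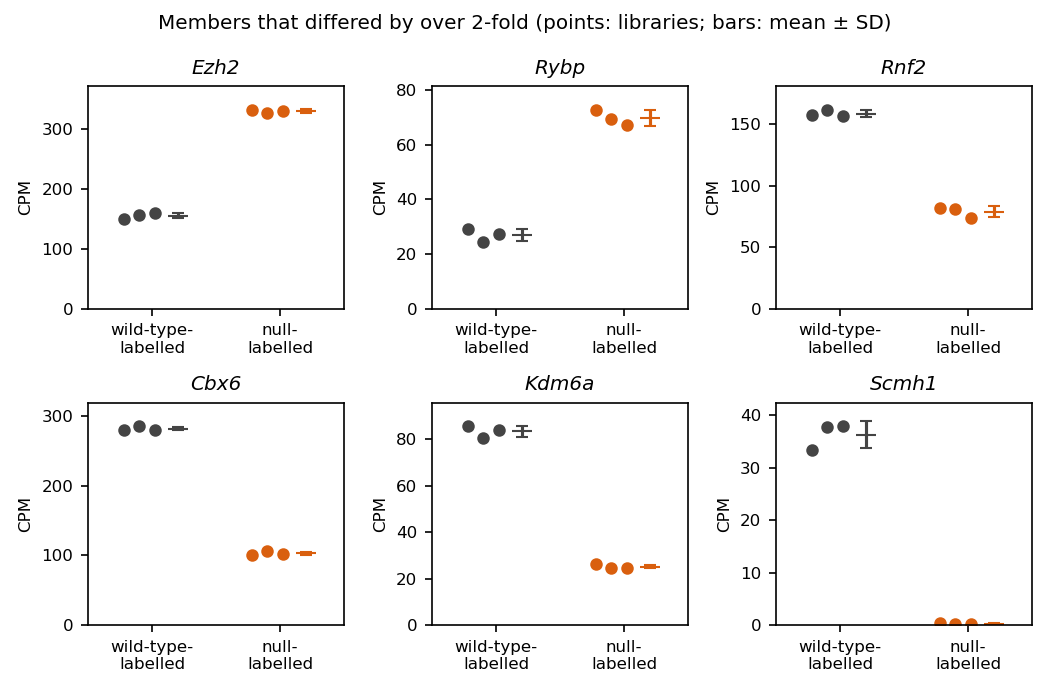
CPM of the 6 genes with a log2 fold change of at least 1 in size (Ezh2, Rybp, Rnf2, Cbx6, Kdm6a and Scmh1), as points for the single libraries of each group beside the group mean with SD as a bar; every panel has its own linear axis from 0. Ezh2 and Rybp are higher in all null-labelled libraries, Rnf2, Cbx6 and Kdm6a are lower in all of them, and Scmh1 lies near 0 there.

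PRC2 takes accessory subunits that bring it to CpG islands, and here 3 of 5 were higher and 2 lower. Jarid2, which with AEBP2 defines the PRC2.2 form, rose from 42.01 to 77.7 CPM (0.89 ± 0.043 SE), and Aebp2 rose less, from 231 to 288 CPM (0.32 ± 0.026 SE). The Polycomb-like proteins, which define PRC2.1, moved apart from one another. Phf19 rose from 26.7 ± 0.155 to 51.6 ± 0.615 CPM (0.95 ± 0.051 SE), while Phf1 (-0.57 ± 0.061 SE) and Mtf2 (-0.34 ± 0.040 SE) fell. Per kilobase, Phf19 went from 16.3% ± 0.594 to 33.8% ± 0.668 (SD, n = 3) of the 3 Polycomb-like transcripts, a difference of 17.5 points with non-overlapping groups, and their sum was 32.4 against 30.3 CPM per kilobase. Over all 11 PRC2 genes, 5 rose, 4 fell and 2 did not pass, with a median of 0.08, and the 3 beyond 1.5-fold (Ezh2, Jarid2 and Phf19) were all higher.

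In PRC1 both directions held large changes: 11 of 20 genes rose, 8 fell and 1 did not pass, with 4 higher and 5 lower beyond 1.5-fold and a median of 0.17. Whether the 2 complexes differ was not tested. The catalytic RING proteins went opposite ways. Rnf2, the main ligase, measured 158, 162 and 157 CPM with the wild-type label and 81.8, 81.4 and 73.7 CPM with the null label. All null-labelled values lay below all wild-type-labelled ones, 2.01-fold lower (-1.01 ± 0.033 SE, edgeR adjusted p = 5.91e-198). Ring1, its paralog, stood at 18.9, 17.6 and 19.4 CPM against 30.5, 29.6 and 32.7 CPM, again without overlap (0.72 ± 0.062 SE, edgeR adjusted p = 4.37e-31). Per kilobase, Rnf2 fell from 87.0% ± 0.747 to 66.7% ± 2.41 (SD, n = 3) of the summed RING transcripts, a difference of -20.3 points, and the sum went from 44.2 ± 0.390 to 28.7 ± 0.669 CPM per kilobase. Rnf2 thus remained the more abundant of the pair in all 6 libraries.

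The 6 PCGF genes define the forms of PRC1, from PRC1.1 with PCGF1 to PRC1.6 with PCGF6. Bmi1 (PCGF4), of canonical PRC1, stood at 125, 128 and 126 CPM against 162, 155 and 159 CPM. It rose with no overlap of groups (0.32 ± 0.031 SE, edgeR adjusted p = 7.07e-26), while Pcgf2, its canonical paralog, fell from 44.9 to 33.1 CPM (-0.44 ± 0.050 SE). Bmi1 accordingly went from 71.4% ± 0.635 to 80.9% ± 0.258 (SD, n = 3) of the pair per kilobase. The PRC1.3 and PRC1.5 genes also parted: Pcgf3 fell from 139 to 79.5 CPM (-0.81 ± 0.034 SE) and Pcgf5 rose from 22.2 to 29.98 CPM (0.42 ± 0.060 SE). Pcgf6 rose from 48.9 to 78.9 CPM (0.69 ± 0.042 SE). Pcgf1 was lower without passing, at 9.14 ± 0.480 against 8.08 ± 0.552 CPM (-0.17 ± 0.102 SE, interval -0.37 to 0.03, edgeR adjusted p = 0.105). The PCGF sum went from 101 ± 0.598 to 118 ± 1.69 CPM per kilobase (SD, n = 3), opposite in direction to the RING sum. Bmi1 was the largest PCGF component in both groups (31.4% and 33.7%), with Pcgf6 next (23.0% and 31.8%), and Pcgf3 went from 14.4% to 7.05%.

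Among the 8 genes specific to canonical PRC1, 4 rose and 4 fell, yet their summed level fell from 112 ± 2.06 to 69.5 ± 2.13 CPM per kilobase (SD, n = 3), with the abundant Cbx6 and Phc2 among those that fell. Cbx6, a chromodomain reader of H3K27me3, measured 280.4, 285 and 281 CPM with the wild-type label and 101, 106 and 102 CPM with the null label. The groups were far apart, 2.74-fold lower in the null-labelled libraries (-1.46 ± 0.029 SE, adjusted p = 3.11e-196 in edgeR's test against 1.5-fold). The other CBX members rose: Cbx8 from 13.9 to 24.7 CPM (0.84 ± 0.070 SE), Cbx7 from 33.1 to 49.2 CPM (0.57 ± 0.049 SE) and Cbx2 from 4.01 ± 0.859 to 4.996 ± 0.216 CPM (0.36 ± 0.141 SE, edgeR adjusted p = 0.0155). The call of Cbx2 was lost without the wild-type-labelled library 1 (0.16, adjusted p = 0.352) and without the null-labelled library 1 (adjusted p = 0.0582), and by DESeq2 (adjusted p = 0.205). Per kilobase, Cbx6 went from 82.0% ± 0.357 to 51.4% ± 1.04 of the 4 CBX members, Cbx7 from 9.34% ± 0.450 to 23.8% ± 0.734, and Cbx8 from 6.90% ± 0.282 to 21.1% ± 0.463 (SD, n = 3). Of the exon bases of Cbx6, 8.95% also belong to exons of Npcd, and reads there were not counted.

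The PHC proteins, which let canonical PRC1 polymerise, shifted in the same manner. Phc2, the most abundant, fell from 282 ± 8.29 to 175 ± 12.1 CPM (-0.68 ± 0.027 SE), Phc3 fell from 77.0 to 54.0 CPM (-0.51 ± 0.041 SE), and Phc1 rose slightly, from 45.9 to 51.8 CPM (0.18 ± 0.046 SE). Phc1 went from 16.4% ± 0.291 to 26.0% ± 0.505 (SD, n = 3) of the PHC transcripts per kilobase, and Phc2 from 75.3% to 65.8%. Scmh1, a sex-comb protein that joins PRC1 through PHC, gave the largest change of the 37. It had 776, 575 and 724 counts under the wild-type label but 7, 2 and 4 under the null label, which is 33.4, 37.7 and 37.9 CPM against 0.359, 0.117 and 0.213 CPM. The transcript was near the limit of detection in all 3 null-labelled libraries. The ratio of pooled levels was 154, with a 95% counting interval of 89.6 to 289 that covers counting error only (log2 fold change -7.23 ± 0.150 SE). Scmh1 lies on the plus strand of chromosome 4 (mm10, 120405281 to 120530186), and the nearest tested gene on either side kept counts in both groups: Ctps was at 239 against 178 CPM (-0.42 ± 0.027 SE), and Edn2, at a low level, was higher (0.136 against 1.37 CPM).

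Of the 4 variant PRC1 genes 3 rose and 1 fell, and their summed level was 54.1 ± 0.550 against 72.3 ± 1.14 CPM per kilobase (SD, n = 3). Rybp, which activates the ligase and takes the place of CBX, stood at 29.1, 24.5 and 27.2 CPM against 72.9, 69.4 and 67.2 CPM. All null-labelled libraries lay above all wild-type-labelled ones, 2.57-fold higher (1.36 ± 0.048 SE, edgeR adjusted p = 3.43e-175). Yaf2, its paralog, rose from 60.7 to 67.5 CPM (0.16 ± 0.042 SE). Rybp thereby went from 14.9% ± 1.498 to 29.0% ± 0.959 (SD, n = 3) of the pair per kilobase, and Yaf2 stayed the larger part. L3mbtl2, a reader in PRC1.6, rose from 73.3 to 109 CPM (0.57 ± 0.037 SE). Kdm2b, which brings PRC1.1 to unmethylated CpG islands, fell from 40.4 to 34.5 CPM (-0.23 ± 0.051 SE). Of the exon bases, 17.2% of L3mbtl2 and 8.74% of Kdm2b are shared with other genes and were not counted. Sfmbt1, of PhoRC, rose from 28.02 to 36.4 CPM (0.37 ± 0.055 SE).

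**Figure D3:**
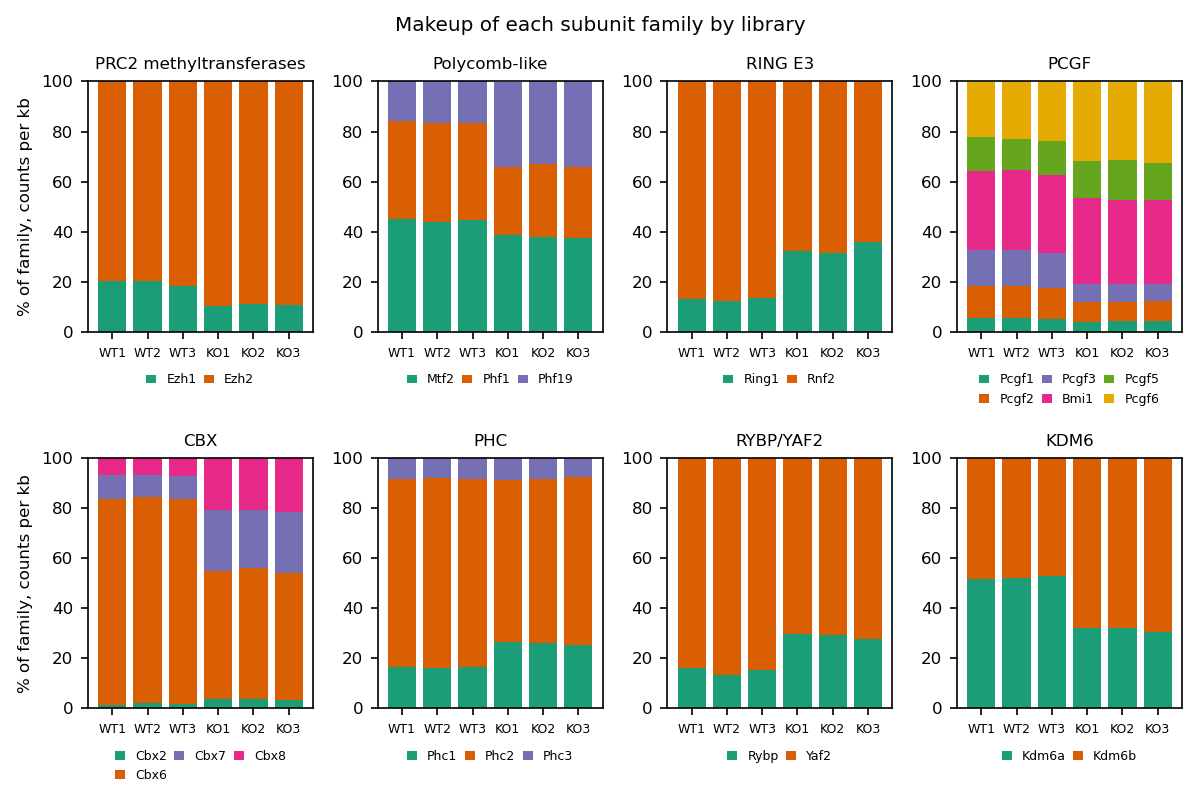
Share of each paralog (percent of the family sum of CPM per kilobase of exon) in each of the 6 libraries, WT1 to WT3 for wild-type-labelled and KO1 to KO3 for null-labelled, as stacked bars for 8 families. Within a group the libraries are alike; in the null-labelled libraries the shares of Rnf2, Cbx6, Phc2, Yaf2 and Kdm6a are smaller and those of Ring1, Cbx7, Cbx8, Phc1, Rybp and Kdm6b larger, while Ezh2 takes a larger share from Ezh1.

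Of the 5 genes that act in removing Polycomb marks, the 3 enzymes (Kdm6a, Kdm6b and Bap1) fell and the 2 cofactors (Asxl1 and Asxl2) rose, with a median of -0.12. Kdm6a (UTX), an X-linked demethylase of H3K27me3, measured 85.6, 80.7 and 83.9 CPM with the wild-type label and 26.1, 24.7 and 24.7 CPM with the null label. The null-labelled values lay close together and far below the others, 3.32-fold lower (-1.73 ± 0.047 SE, edgeR adjusted p = 1.57e-288). Its paralog Kdm6b (JMJD3) fell less, from 64.9 to 46.6 CPM (-0.48 ± 0.044 SE). Their sum went from 19.6 ± 0.628 to 9.79 ± 0.269 CPM per kilobase (SD, n = 3), and Kdm6a from 52.3% ± 0.678 to 31.5% ± 0.886 of it, so that Kdm6b was the larger part in the null-labelled libraries. The deubiquitinase Bap1, which takes ubiquitin off H2A, fell slightly, from 142 to 130.5 CPM (-0.12 ± 0.031 SE). Of its cofactors Asxl2 rose from 105 to 171 CPM (0.69 ± 0.031 SE) and Asxl1 from 173 to 189 CPM (0.13 ± 0.028 SE).

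Kdm6a escapes X inactivation, and Xist, the RNA that coats the inactive X, differed between the groups as well, at 688 ± 31.4 against 1.961 ± 0.304 CPM (SD, n = 3). The part of this in the Kdm6a difference was not tested. Of 4 Y-linked genes (Ddx3y, Eif2s3y, Kdm5d and Uty), none had more than 5 counts in any library. Of 3 further X-linked escape genes, named after their values were seen, Eif2s3x fell (-0.58 ± 0.076 SE), Kdm5c fell slightly (-0.24 ± 0.025 SE), and Ddx3x did not pass (-0.03 ± 0.021 SE, edgeR adjusted p = 0.154). Each was a smaller change than that of Kdm6a. The 601 tested genes of the X chromosome had a median of -0.04, beside -0.02 for 14597 autosomal genes.

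Other Polycomb partners were listed apart from the 37. Of 25 listed, 24 could be tested, of which 14 rose and 7 fell, with a median of 0.17. For this list and the next, the shares over all genes were 38.1% higher and 41.1% lower. Bcor, the corepressor of PRC1.1, rose from 73.6 ± 1.52 to 213 ± 6.06 CPM (1.53 ± 0.032 SE), while Pcgf1 and Kdm2b of the same complex did not rise. Epop, a PRC2.1 subunit, had 27 counts against 215, a ratio of 8.28 (95% counting interval 5.53 to 12.9). Sfmbt2, the PhoRC paralog of Sfmbt1, had 1057 counts against 0. A further list held 10 genes, either partners of the Bap1 deubiquitinase or genes of H2A deubiquitination or H3K27 demethylation. Of these 9 were tested, 5 rose and 3 fell. Asxl3, the third paralog of the Bap1 cofactors, had 300 counts in the wild-type-labelled libraries and 0 in the null-labelled ones, at least 96.2-fold lower against 3 counts over the group. Kdm1b, which is not an H3K27 demethylase, rose (0.80 ± 0.066 SE), as did Ogt (0.49 ± 0.048 SE), which modifies proteins with sugar.

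Trithorax and MLL complexes place the activating H3K4 methylation that opposes Polycomb, and KDM6A is a subunit of those built on KMT2C and KMT2D. Of 15 listed genes 14 could be tested, of which 9 rose and 3 fell, with a median of 0.15, where 38.1% of all genes rose and 41.1% fell. Kmt2c rose from 38.2 ± 2.04 to 151 ± 2.99 CPM (1.98 ± 0.039 SE), against the direction of Kdm6a. Ash2l, a core subunit of all these complexes, rose from 205 to 465 CPM (1.19 ± 0.025 SE), and Kmt2a rose from 69.3 to 121 CPM (0.80 ± 0.045 SE).

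Genes known from other systems as Polycomb targets were read as a separate list, since levels of subunits do not give the level of the marks, which were not measured here. Of 47 listed, 18 could be tested, and 9 were at 0 in all 6 libraries. Of the 18 tested, 7 were higher and 11 lower, where 38.1% of all genes were higher and 41.1% lower. Their median log2 fold change was -1.74, beside -0.02 for all genes. The low-count filter keeps a target expressed in a single group and drops one that is low in both. Large differences are thus favoured among the tested targets, and the median does not describe the whole list. Of the tested targets 6 were higher and 10 lower beyond 1.5-fold, beside a background of 15.3% and 19.2%. Cdkn2a, which encodes p16INK4a and ARF, had 16199 counts in the wild-type-labelled libraries and 25 in the null-labelled ones, a ratio of 623 (95% counting interval 422 to 963). Cdkn2b, its neighbour, had 2516 against 5 counts, a ratio of 484 (207 to 1492). Sox2, a stem cell regulator, had 6454 against 5 counts, a ratio of 1242 (532 to 3826). By log2 fold change these 3 led the tested targets, and all were lower. By ratio of counts Tbx5 lay between Cdkn2a and Cdkn2b, with 571 against 1 counts, a ratio of 549 (98.2 to 21734). Of the 7 that rose, named after their values were seen, Pax6 went from 5.97 to 56.7 CPM (3.24 ± 0.069 SE), Sox9 from 29.1 to 70.1 CPM (1.27 ± 0.047 SE) and Foxa1 from 20 to 259 counts, a ratio of 13.5 (8.54 to 22.4). Many of these genes also mark cell types, and 11 of 12 fibroblast markers fell in the same libraries; the part of that in the target list was not tested.

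**Figure D4:**
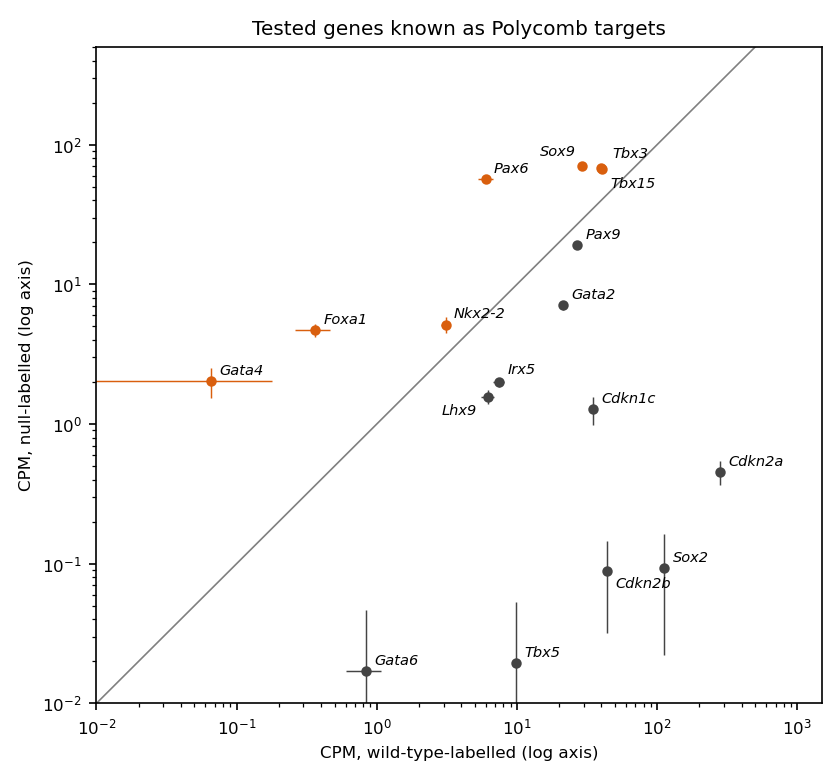
Mean CPM of 17 of the 18 tested Polycomb target genes in the null-labelled against the wild-type-labelled libraries on log axes, with SD of 3 libraries as bars (a bar that would reach 0 runs to the edge) and the line of equal level. The 7 orange points are higher and the 10 grey points lower in the null-labelled libraries, with Cdkn2a, Cdkn2b, Sox2 and Tbx5 among those farthest below the line.

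Several Polycomb genes, Ezh2 among them, are known to follow the cell cycle, and a list of proliferation markers was read beside them. All 16 passed, 11 higher and 5 lower, where 79.2% of all genes passed, 38.1% higher and 41.1% lower. Their median was 0.27 and their summed level 4883 to 4946 CPM against 5415 to 5455 CPM. E2f2 rose from 19.3 to 96.5 CPM (2.31 ± 0.048 SE), Mcm5 from 314 to 577 CPM (0.87 ± 0.024 SE) and Foxm1 from 242 to 388 CPM (0.68 ± 0.025 SE). Of the 5 that fell, Mki67 went from 623 to 407 CPM (-0.61 ± 0.023 SE), Mcm6 from 512 to 383 CPM (-0.42 ± 0.023 SE) and E2f1 from 90.4 to 70.04 CPM (-0.37 ± 0.039 SE), all 3 named after their values were seen. The log2 fold change of Ezh2 (1.09) lay above the list median of 0.27 and above every marker named here except E2f2 (2.31). The part of proliferation in the Ezh2 change was not tested.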

How the data were processed

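RNA sequencing reads (single, 51 bp) were counted per gene by the authors. Per the file headers, the deposited values are raw counts per Ensembl gene, made with featureCounts 1.6.2 on the exons of Ensembl release 83 (GRCm38, mm10) with no strand option, so reads over exons of several genes and reads that map to several places were left out. Near-identical copies, such as pseudogenes of Rbbp4 and Rbbp7, may therefore lower a gene's count. The submitters' processing notes name featureCounts 1.2.6 with Subread 1.6.2, and also Trimmomatic 0.33 and FastQC 0.11.2, with no order; the aligner's settings were not given in the sources used here.

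Groups came from the sample titles. The 15199 genes kept by filterByExpr were tested after TMM scaling in edgeR 4.0.16 under R 4.3.3, with the robust quasi-likelihood F-test and, against 1.5-fold, with glmTreat, with Benjamini-Hochberg adjustment over all of them at 0.05. CPM use TMM-scaled library sizes, with factors of 0.978 to 0.983 for the wild-type-labelled and 1.020 to 1.021 for the null-labelled libraries. This scaling and those of the alternatives assume that most genes do not change, so small differences depend on it. Family shares use CPM per kilobase of exon and an exact permutation test. Counting intervals are 95% exact binomial, and bounds use 3 counts over a group. Symbols were matched for 98.9% of identifiers.

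The genes and lists were chosen with earlier results of these data known. Named were all 37 genes, with single libraries shown for 6 core genes and for those with a log2 fold change of at least 1 in size, and, by size of change past 0.05, the leading 3 genes per pathway list and up to 2 per marker list given an average log2 CPM of at least 1. On counts simulated for this comparison (14853 genes), 50 genes were changed by each of 4 sizes, and the test found 66% of those at 1.2-fold, 80% of those at 1.5-fold, 96% of those at 2-fold and 100% of those at 4-fold; it called 16 genes of the 14653 left unchanged. These rates were obtained with 14653 of 14853 genes left unchanged, whereas 79.2% of the 15199 genes passed in the data. Whether the rates hold when most genes differ was not tested. Of the tested target genes, 1 is not reported by name or drawn here. Alternatives were median-of-ratios factors, DESeq2 1.42.0, limma-voom (limma 3.58.1), no low-count filter, over 1 CPM in 3 libraries, a replicate block, an adjusted p of 0.01 and leaving out each library.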

Additional observations from a re-analysis of the deposited data

How the results depend on the processing

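The counts of PRC2, PRC1 and opposing genes in each direction, and of genes beyond 1.5-fold, stayed within 1.5 times of those reported under every alternative run. Of the 37 genes, 36 kept their direction and their side of the threshold in all 12 alternatives that refit the genes; the exception was Cbx2, whose call was lost in 3 of them (without wild-type-labelled library 1 or null-labelled library 1, and by DESeq2). The largest adjusted p of any other called gene under an alternative was 0.049, for Eed. When counts were not divided by exon length, the differences in paralog share moved to 4.48 points for Rbbp7 (reported 2.50), 18.3 for Phf19 (17.5), -17.7 for Rnf2 (-20.3), 8.88 for Bmi1 (9.48), 17.1 for Cbx7 (14.5), 7.11 for Phc1 (9.63) and 20.1 for Rybp (14.1), each in the same direction; the shares of Ezh1 and Kdm6a moved by less than the spread between libraries. Same-numbered libraries of the 2 groups did not deviate together (correlations 0.012, -0.003 and 0.018). Libraries within a group differ so little that this check could miss a pairing. With the replicate block 5 PRC2 genes were higher and 4 lower, 11 and 8 of PRC1, as without it, and 5765 genes were higher and 6238 lower in all. Depth limits Scmh1 in the null-labelled libraries, where its counts were 7, 2 and 4, and Cbx2, the lowest of the 37.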

Other observations

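PRC1.6 is the PRC1 form built on PCGF6, with the DNA-binding pairs MGA with MAX and E2F6 with TFDP1. Apart from the ligases and RYBP or YAF2, its genes as grouped here after their values were seen were all higher in the null-labelled libraries: Pcgf6 (0.69) and L3mbtl2 (0.57) among the 37, and Mga (105 to 168 CPM, 0.67 ± 0.031 SE), E2f6 (0.16 ± 0.034 SE), Max (0.10 ± 0.031 SE), Tfdp1 (0.24 ± 0.039 SE), Cbx3 (0.18 ± 0.045 SE) and Wdr5 (0.56 ± 0.029 SE) outside them. Of the parts left out of this grouping, the main ligase Rnf2 fell (-1.01 ± 0.033 SE), while Ring1 (0.72), Rybp (1.36) and Yaf2 (0.16) rose. Among all genes 38.1% were higher, and no test was made of the grouped genes.

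At the Cdkn2a locus, low counts in the null-labelled libraries were found on both sides. Cdkn2a at 282 against 0.453 CPM and Cdkn2b at 43.7 against 0.0885 CPM lie next to each other. On the Cdkn2b side the next tested genes were Gm12610 at 0.832 against 0 CPM and Dmrta1 at 0.938 against 0.0372 CPM. On the other side Mtap, the nearest, kept 181 CPM against 416 (-1.20 ± 0.026 SE), the low transcripts Gm12602 (2.27 against 0 CPM) and Wincr1 (3.79 against 0.0178 CPM) followed, and Klhl9 beyond them was at 129.7 against 87.4 CPM (-0.57 ± 0.034 SE). Whether the locus is present in the null-labelled cells was not tested.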
